A study of Mus musculus with 6 samples.

Results

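Genes of microglia identity and activation were followed in the prefrontal cortex (PFC) of control mice and mice exposed to early life stress (ELS). The 43 genes form a list taken from knowledge of microglia, and all 43 were found by symbol among the 22000 symbols of the count table. Of these, 42 reached at least 1 CPM (counts scaled to a common library size) in all 3 mice of a group and were tested, as were 13185 genes in all. Cybb, a subunit of the phagocyte NADPH oxidase, stayed under this minimum. RNA-seq was carried out on wild-type male C57BL/6N mice at 9 weeks of age, with 3 control mice, 3 ELS mice and 1 library per mouse. Control mice shared a cage with other males, whereas ELS mice lived alone under a filter cap from weaning, and the mice of both conditions were littermates that kept their housing until dissection. The model is thus one of social isolation in males of a single strain, and the libraries hold the RNA of whole tissue, not of sorted microglia. In such bulk samples, fewer cells of a type and less RNA per cell cannot be told apart.

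Microglia are the resident macrophages of the brain. They survey the tissue through purinergic and chemokine receptors, take up cells, synapses and debris, and depend on signalling by the CSF1 receptor and by TGF-beta for survival and identity. In a resting state they express a set of genes (among them Tmem119, P2ry12, Siglech, Fcrls and Sall1) that falls in many forms of activation, while lysosomal, complement and antigen-presenting genes then tend to increase. Several of the genes listed are not limited to microglia. Ctsd, Itgb5, Cyba, Unc93b1 and Tgfbr1 are expressed by other brain cells as well, and Mertk is also a gene of astrocytes.

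Depth and the makeup of the tissue were compared first. Total counts ran from 28405795 to 35241743 per mouse, and the shallowest ELS library held more counts than the deepest control library, while the scaling factors of the TMM method (trimmed mean of M values) stayed between 0.992 and 1.02. Neuron markers summed to 8102 to 8347 CPM in control mice and 7902 to 8441 CPM in ELS mice. Striatal neuron markers (8 of 9 found) ranged from 297 to 556 CPM and were highest in control mouse 3 and ELS mouse 1, which also had the highest sums of erythrocyte markers. Their part in the results below was not tested.

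No microglia gene was called different between the groups. The quasi-likelihood test of edgeR called 0 of the 42 genes, where a call needed an adjusted p (Benjamini-Hochberg) under 0.05 together with a log2 fold change beyond 0.3 in either direction, against 2 of all 13185 genes (0.0152%). DESeq2 and the likelihood ratio test of edgeR also called 0 of the 42, against 18 and 28 of all 13185 genes. Without adjustment, 2 of the 42 genes had a p under 0.05 in the quasi-likelihood test, the phagocytic receptor gene Mertk (lower in ELS mice) and the purinergic receptor gene P2ry13 (higher), as did 558 of all genes (4.23%). Both other tests gave 2 of the 42 as well, beside 3.72% of all genes with DESeq2 and 4.95% with the likelihood ratio test, so the share among microglia genes was near that of all genes in each test.

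The fold changes of the genes were small and mostly above 0. The log2 fold change, given throughout as ELS minus control, lay above 0 for 29 of the 42 genes, against 47.5% of all genes tested. Its median was 0.08, with the middle of the distribution between -0.01 and 0.13, whereas the median over all genes was -0.0046. With a mouse left out, the median of the microglia genes ran from 0.03 to 0.10. The log2 fold change ranged from -0.26 for Mertk to 0.24 for Apbb1ip. The 95% interval included 0 for 40 of the 42 genes and lay wholly between -0.3 and 0.3 for 18 of them. It reached above 0.3 for 22 genes and below -0.3 for 8 genes, so changes of this size lie within the error for those genes with 3 mice per group.

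**Figure D1:**
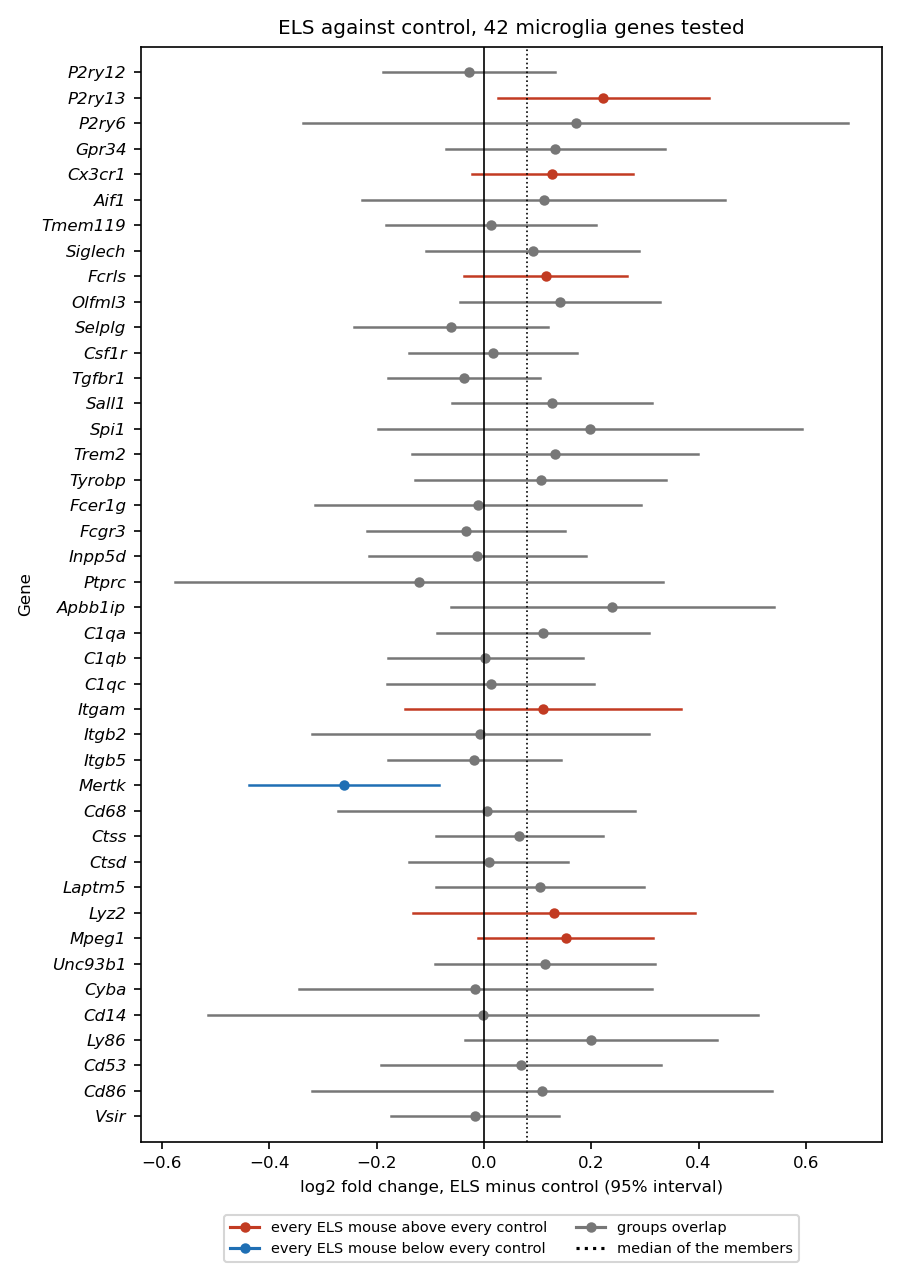
Log2 fold change (ELS minus control) of each of the 42 microglia genes tested, with the 95% interval of edgeR's quasi-likelihood fit, ordered by role. Most points lie to the right of 0, the dotted line marks their median of 0.08, and the intervals of Mertk and P2ry13 alone leave out 0.

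In 6 of the 42 genes every ELS mouse lay above every control mouse, against 3.81% of all genes tested. These were P2ry13, Cx3cr1, Fcrls, Itgam, Lyz2 and Mpeg1. Every ELS mouse lay below every control mouse in 1 gene, Mertk, against 4.47% of all genes. The mice were not equal within a group. Among the 42 genes, 12 had their highest CPM in ELS mouse 3 (28.6%, against 12% of all genes tested) and none had its lowest there (11.7% of all genes). That library also stood apart in Cxcl10, an interferon-induced chemokine gene outside the list, with 63 reads against 0 to 4 in the other mice. ELS mouse 1 held the lowest value of 1 gene. ELS mouse 2, by contrast, held the lowest value of 10 genes and the highest of 3, which is close to control mouse 1 with 10 and 4. Relative to the mean of the 6 mice, the median of the genes on the log2(CPM + 0.5) scale was -0.06, -0.06 and 0.04 for the controls (mice 1 to 3) and 0.06, -0.05 and 0.09 for the ELS mice (1 to 3). Control mouse 3 and ELS mouse 2 therefore lay on the side of the other group. With each mouse left out in turn, the number of genes higher in every ELS mouse was 8, 6 and 16 without control mice 1 to 3 and 7, 13 and 6 without ELS mice 1 to 3. The shares over all genes were then 8.68, 6.86 and 13.9% and 7.48, 7.58 and 6.97%. Control mouse 3 stood apart over all genes, in that without it the share higher in every ELS mouse was 13.9%, the share lower was 15.7%, and 11.7% of all genes had an unadjusted p under 0.05.

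**Figure D2:**
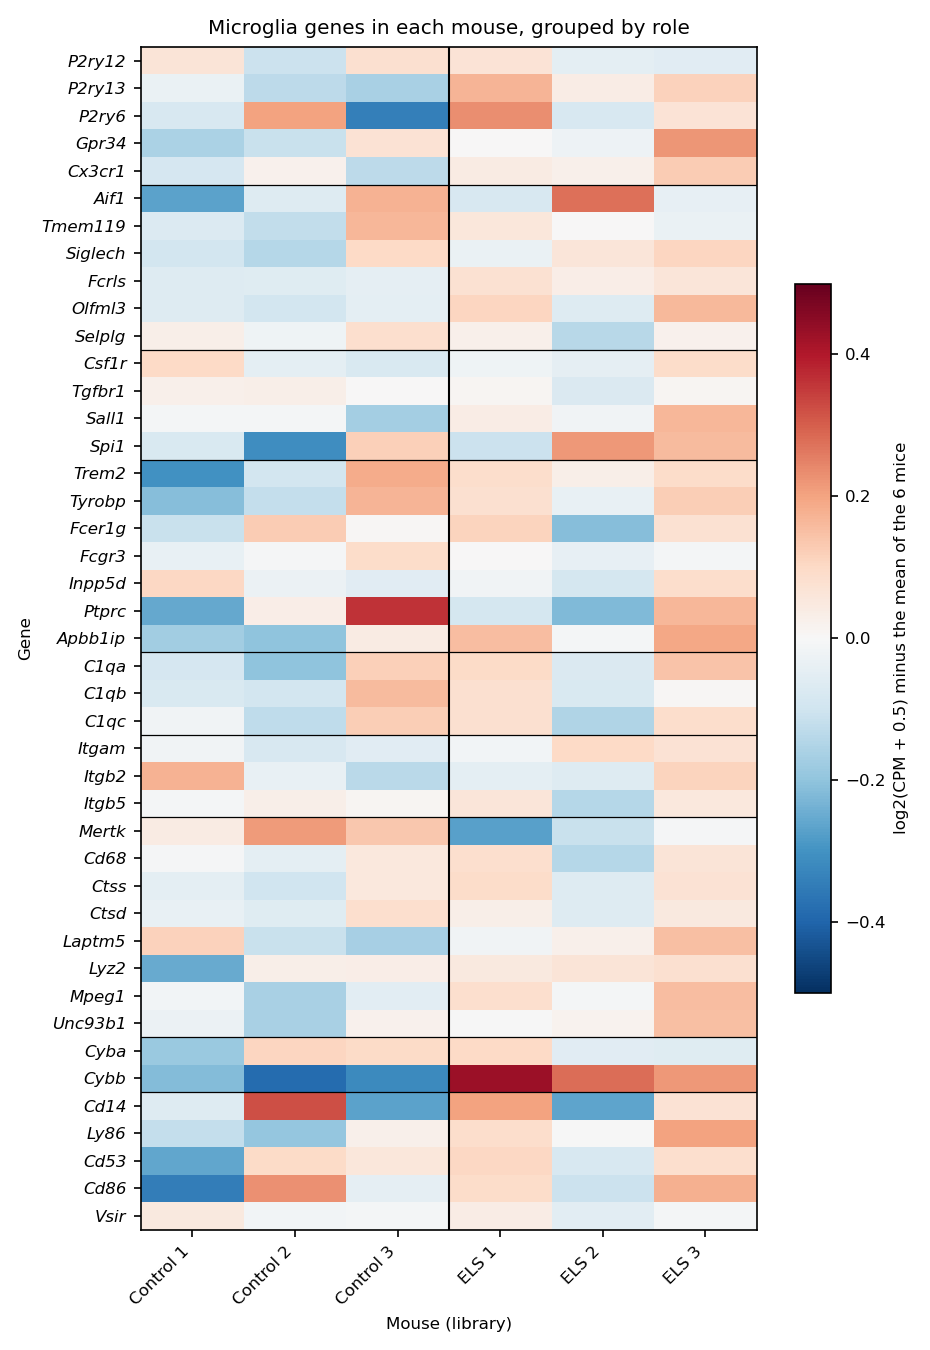
Level of each of the 43 microglia genes (rows, grouped by role) in each mouse (columns), as log2(CPM + 0.5) minus the mean of the 6 mice, with red above and blue below that mean. ELS mice 1 and 3 are mostly red and control mice 1 and 2 mostly blue, while control mouse 3 and ELS mouse 2 go against their groups in many rows.

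Summed over the 43 genes, the level was 1216, 1193 and 1267 CPM in control mice and 1267, 1198 and 1302 CPM in ELS mice. The groups overlapped, and their means were 1225 ± 37.8 and 1256 ± 53.3 CPM (SD, n = 3 each), a ratio of 1.02. Without the 6 genes that other brain cells also express the sums were 850 ± 28.1 and 890 ± 38.2 CPM (SD, n = 3 each), a ratio of 1.05, and the groups still overlapped. Of the genes left out, Mertk (-0.26), Tgfbr1 (-0.04), Itgb5 and Cyba (both -0.02) had log2 fold changes below 0. Those of Ctsd (0.01) and Unc93b1 (0.11) lay above 0.

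Purinergic and chemokine receptors let microglia sense nucleotides and neuronal fractalkine, and 4 of these 5 genes had a log2 fold change above 0. P2ry13 encodes a receptor for ADP that keeps the processes of resting microglia ramified, and its gene spans chromosome 3 from 59207892 to 59210882 (minus strand, GRCm38). It had 14.4, 13.4 and 13.1 CPM in control mice and 16.6, 15.1 and 16.0 CPM in ELS mice. The lowest ELS mouse lay above the highest control mouse, and the log2 fold change was 0.22 (standard error 0.0906, 95% interval 0.03 to 0.42, adjusted p = 1 in edgeR). Leaving out control mouse 2 or 3 or ELS mouse 1 or 3 made the interval include 0. Cx3cr1, the receptor for fractalkine, lies on chromosome 9 from 119901616 to 120069879 (minus strand), where an antisense gene overlaps 1.73% of its exons. Its levels were 62.6, 67.3 and 60.5 CPM in control mice and 68.2, 67.5 and 72.4 CPM in ELS mice. Here the groups were separated only by the narrow step between control mouse 2 and ELS mouse 2, with a log2 fold change of 0.13 (95% interval -0.02 to 0.28).

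P2ry12, the ADP receptor that directs microglial processes towards injury, lies beside P2ry13 and had a fold change close to 0. It had 67.4, 59.9 and 68.3 CPM in control mice and 67.6, 62.4 and 62.0 CPM in ELS mice. The groups overlapped fully, with a log2 fold change of -0.03 (95% interval -0.19 to 0.13), or 0.006 without control mouse 3. Both genes lie inside Med12l, which is transcribed from the opposite strand and overlaps 0.353% of the P2ry12 exons. Gpr34, a lysophosphatidylserine receptor, had a log2 fold change of 0.13 (95% interval -0.07 to 0.34) and P2ry6, the UDP receptor linked to phagocytosis, one of 0.17 with a wide interval of -0.34 to 0.68. Both overlapped between groups. The P2ry6 value was 0.01 without control mouse 3 and 0.36 without control mouse 2, and that of Gpr34 ran from 0.05 to 0.20 with a mouse left out.

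**Figure D3:**
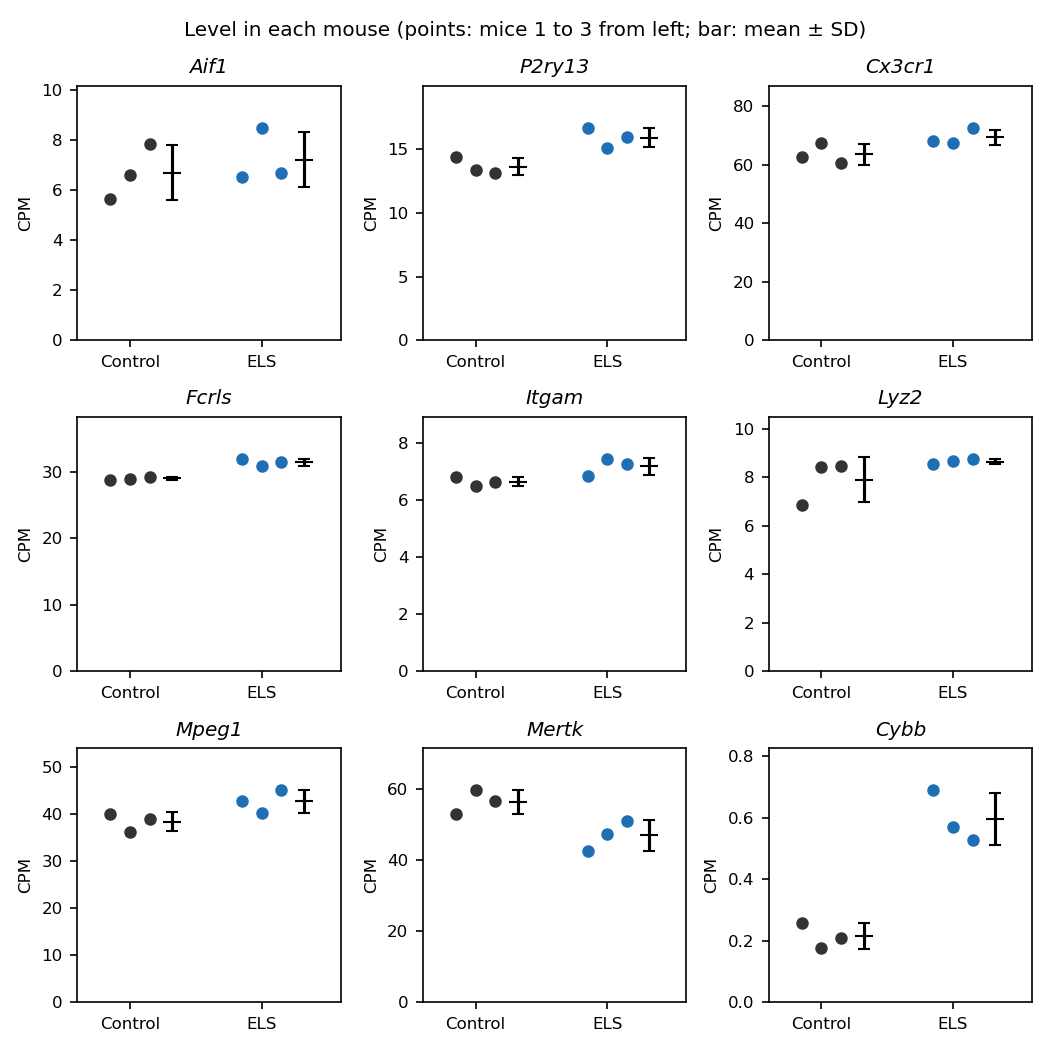
CPM of 9 microglia genes in each mouse (points, mice 1 to 3 from left to right; bars, mean ± SD over 3 mice), with each axis starting at 0. Of these, 8 are shown because their groups do not overlap (higher in ELS mice, except Mertk), and Aif1 was added. Cybb, 1 of the 8, stayed under the minimum and was not tested (4.13% of all genes lay higher in the fit without a minimum). Among all genes tested, 3.81% lay higher and 4.47% lower in every ELS mouse.

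Among the surface and secreted identity proteins, 5 of 6 genes had a log2 fold change above 0, with a median of 0.10. Fcrls, an Fc receptor-like protein by which microglia are told from other macrophages, lies on chromosome 3 from 87250758 to 87263738 (minus strand). It had 28.8, 28.9 and 29.2 CPM in control mice and 31.8, 30.9 and 31.5 CPM in ELS mice. Both groups were tight and did not overlap, and the log2 fold change was 0.12 (95% interval -0.04 to 0.27). The interval includes 0 all the same, and the model behind it draws the spread of a gene from all genes as well as from its own 6 mice. Olfml3, a secreted olfactomedin protein, had 20.7, 20.3 and 20.97 CPM in control mice and 23.4, 20.7 and 24.3 CPM in ELS mice. ELS mouse 2 fell within the controls, and the log2 fold change was 0.14 (95% interval -0.04 to 0.33).

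Aif1 encodes Iba1, the protein stained in the study to count microglia. The paper reports slightly more Iba1-positive cells in the PFC of ELS mice, and RNA of whole tissue does not test that cell count. The Aif1 gene spans chromosome 17 from 35170991 to 35176068 (minus strand). Its levels were 5.65, 6.58 and 7.85 CPM in control mice and 6.50, 8.46 and 6.69 CPM in ELS mice. The groups overlapped, at 6.69 ± 1.11 and 7.22 ± 1.08 CPM (SD, n = 3 each), and the log2 fold change was 0.11 (standard error 0.156, 95% interval -0.23 to 0.45, adjusted p = 1 in edgeR). Its direction rested on ELS mouse 2, since without that mouse the log2 fold change was -0.02. Tmem119, a membrane protein used to mark microglia, stood at 25.7 ± 2.86 and 25.9 ± 0.865 CPM (SD, n = 3 each), which gave a log2 fold change of 0.01 (95% interval -0.18 to 0.21). Siglech, a sialic acid-binding lectin, had a log2 fold change of 0.09, and Selplg, the ligand of P-selectin, one of -0.06. Both had intervals that included 0.

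In the 4 genes of growth factor receptors and transcription factors of microglia the groups overlapped, and each 95% interval included 0. Csf1r, the receptor on which the survival of microglia depends, had 108, 97.6 and 95.6 CPM in control mice and 99.4, 97.8 and 107.5 CPM in ELS mice. Each group held 1 high mouse, and the log2 fold change was 0.02 (95% interval -0.14 to 0.17). Hmgxb3, on the opposite strand, overlaps 15.1% of the Csf1r exons. Tgfbr1, a TGF-beta receptor, had a log2 fold change of -0.04 (95% interval -0.18 to 0.11), and Sall1, a transcription factor of microglial identity, one of 0.13 (95% interval -0.06 to 0.31). Spi1 encodes PU.1, the ETS transcription factor that directs the myeloid lineage, and stood at 3.50 ± 0.591 CPM in controls and 4.01 ± 0.523 CPM after ELS (SD, n = 3 each). The log2 fold change was 0.20 (95% interval -0.20 to 0.59).

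PU.1 binds purine-rich sites known as PU boxes, and several genes of the list are known targets of it. The letters of the PU box, GAGGAA or its reverse complement TTCCTC on either strand, were looked for in RefSeq promoter windows of GRCm38.p6, from 250 bases before to 50 bases after a transcript start. Windows were matched for 31 of the 43 genes (36 windows), and 19 of these windows (52.8%) held the letters, against 28.3% of all 32851 windows. The longer form GAGGAAGT, which contains the shorter, was found in 5 of the 36 windows (13.9%), against 3.2% of all windows. A match describes the letters only and is not evidence of binding. The stretches of 60 bases below lie before the start and outside annotated exons. They show the match in the receptor P2ry13 and the integrin Itgam, whose groups did not overlap, and in the phosphatase Inpp5d and the complement chain C1qc, which hold the longer form. Each is printed in the direction of transcription with the PU box letters in capitals, at chr3:59210898-59210957 (minus strand), chr7:128062529-128062588 (plus strand), chr1:87620252-87620311 (plus strand) and chr4:136893075-136893134 (minus strand), in that order.
P2ry13: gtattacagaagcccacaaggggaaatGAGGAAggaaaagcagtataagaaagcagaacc
Itgam: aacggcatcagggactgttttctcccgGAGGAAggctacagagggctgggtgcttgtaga
Inpp5d: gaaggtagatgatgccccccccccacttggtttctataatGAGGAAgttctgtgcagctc
C1qc: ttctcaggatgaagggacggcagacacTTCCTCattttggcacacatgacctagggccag
Of the 17 tested genes with the letters in a window, 13 had a log2 fold change above 0 and 4 below, beside 29 of the 42 genes above 0 in all. Besides P2ry13 and Itgam they included Apbb1ip, at the upper end of the fold changes, and the 4 below 0 were Inpp5d, Fcgr3, Ptprc and Tgfbr1.

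The TREM2 receptor signals through the adaptor Tyrobp (DAP12), and the Fc receptors through Fcer1g, both of which carry the activation motif that recruits the kinase Syk. In this group of 7 genes, 3 had a log2 fold change above 0, and the median was -0.01. Tyrobp lies on chromosome 7 from 30413760 to 30417585 (plus strand). It had 14.8, 15.9 and 19.5 CPM in control mice and 18.3, 16.8 and 18.8 CPM in ELS mice. The highest of the 6 mice was a control, and the log2 fold change was 0.11 (95% interval -0.13 to 0.34). Trem2 had the same layout, at 12.1 ± 2.16 and 13.3 ± 0.333 CPM (SD, n = 3 each), with a log2 fold change of 0.13 (95% interval -0.13 to 0.40). Both values rested on the controls, at 0.03 (Tyrobp) and 0.02 (Trem2) without control mouse 1 and at 0.23 and 0.27 without control mouse 3.

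Apbb1ip (RIAM), which links Rap1 to integrin activation, had the highest log2 fold change of the 42 genes. Its levels were 5.13, 5.02 and 6.04 CPM in control mice and 6.56, 5.80 and 6.75 CPM in ELS mice. Control mouse 3 lay above ELS mouse 2, so the groups overlapped, and the log2 fold change was 0.24 (standard error 0.139, 95% interval -0.06 to 0.54, adjusted p = 1 in edgeR). Fcer1g and Fcgr3, which encode the Fc receptor gamma chain and a low-affinity IgG receptor, stood at -0.01 and -0.03. Inpp5d (SHIP1), a phosphatase that restrains these receptors, was at -0.01. Ptprc (CD45), the common leukocyte phosphatase, had the most negative log2 fold change of the group at -0.12, with an interval of -0.58 to 0.33.

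The C1q chains start the classical complement cascade and are made in the brain mainly by microglia. C1qa, on chromosome 4 from 136895917 to 136898803 (minus strand), had 44.4, 40.8 and 51.1 CPM in control mice and 50.3, 44.8 and 52.0 CPM in ELS mice. Control mouse 3 lay above ELS mice 1 and 2, and the log2 fold change was 0.11 (95% interval -0.09 to 0.31), or 0.04 without control mouse 2 and 0.20 without control mouse 3. C1qb and C1qc, which lie beside C1qa and form the same protein with it, had log2 fold changes of 0.003 and 0.01 with intervals of -0.18 to 0.19 and -0.18 to 0.21. In all 3 chains the highest control was mouse 3, and the lowest ELS mouse was mouse 2.

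Integrins of microglia bind complement fragments and matrix. Itgam (CD11b), the alpha chain of complement receptor 3, had 6.82, 6.51 and 6.63 CPM in control mice and 6.83, 7.43 and 7.28 CPM in ELS mice. The groups did not overlap, but control mouse 1 and ELS mouse 1 differed by less than the spread within either group, and the log2 fold change was 0.11 (95% interval -0.15 to 0.37). The value is also uncertain because the gene model Gm49368, on the same strand, overlaps 68.7% of the Itgam exons. Itgb2 (CD18), its partner chain, was at -0.01 (95% interval -0.32 to 0.31). Itgb5, a receptor for apoptotic cells and TGF-beta, had 44.6, 45.9 and 45.2 CPM in control mice and 46.8, 40.7 and 46.5 CPM in ELS mice. Only ELS mouse 2 stood apart, and the log2 fold change was -0.02 (95% interval -0.18 to 0.14).

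Mertk, a receptor tyrosine kinase of the TAM family by which microglia and astrocytes engulf apoptotic cells and synapses, had the lowest log2 fold change and the smallest adjusted p of the 42 genes. It lies on chromosome 2 from 128698956 to 128802894 (plus strand). Its levels were 52.8, 59.5 and 56.4 CPM in control mice and 42.4, 47.4 and 51.0 CPM in ELS mice. The highest ELS mouse lay below the lowest control mouse, with means of 56.2 ± 3.34 and 46.9 ± 4.32 CPM (SD, n = 3 each). The log2 fold change was -0.26 (standard error 0.0815, 95% interval -0.44 to -0.08), and the adjusted p of 0.931 in edgeR did not pass the threshold. Under the alternative settings its adjusted p in edgeR or DESeq2 lay between 0.234 and 1. The other TAM receptors, Axl and Tyro3, had log2 fold changes of -0.05 and 0.02, and the ligands that bridge them to dying cells, Gas6 and Pros1, -0.05 and -0.06. All 4 overlapped between groups. Summed astrocyte markers had a ratio of 0.994 between the groups, and 4 of the 6 lay below 0. Of the 6, Aldh1l1 was the 1 marker lower in every ELS mouse, as Mertk was, against 4.47% of all genes tested. Its log2 fold change was -0.13 (95% interval -0.27 to 0.01), and the part of astrocytes in the Mertk values was not tested.

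The other 7 genes of phagocytosis and the lysosome had log2 fold changes at or above 0, of which Ctsd and Cd68 were so close to 0 that their sign turned when single mice were left out (-0.02 to 0.05 and -0.04 to 0.08). Mpeg1 (perforin-2), a pore-forming protein of macrophages, lies on chromosome 19 from 12460779 to 12465283 (plus strand) and had 40.1, 36.1 and 39.0 CPM in control mice and 42.9, 40.2 and 45.1 CPM in ELS mice. ELS mouse 2 lay just above control mouse 1, and the log2 fold change was 0.15 (standard error 0.0750, 95% interval -0.01 to 0.32). Lyz2, lysozyme of myeloid cells, had 6.85, 8.42 and 8.45 CPM in control mice and 8.54, 8.66 and 8.74 CPM in ELS mice. Control mouse 1 was low while the other controls lay close below the ELS mice, and the log2 fold change was 0.13 (95% interval -0.13 to 0.39), or 0.04 without control mouse 1. Reads of Lyz2 could also be split with its near-identical copy Lyz1, which makes this value uncertain.

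Ctsd, the aspartic protease cathepsin D, had the highest level per length of the list. It had 200.1, 196.6 and 217.2 CPM in control mice and 209.2, 196.0 and 212.4 CPM in ELS mice, with a log2 fold change of 0.01 (95% interval -0.14 to 0.16). The gene model Gm49369, on the same strand, overlaps 34.4% of its exons. Among the remaining genes, Ctss (cathepsin S, which processes the invariant chain of MHC class II) was at 0.07, Laptm5 (a lysosomal membrane protein of blood-derived cells) at 0.10, Unc93b1 (the chaperone of endosomal toll-like receptors) at 0.11 and Cd68 (a lysosomal glycoprotein used as a sign of phagocytic activity) at 0.005 on the log2 scale. Their intervals included 0.

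The phagocyte NADPH oxidase makes superoxide and is built on the membrane subunits Cyba (p22phox) and Cybb (gp91phox, NOX2). Cyba had 4.22, 5.27 and 5.23 CPM in control mice and 5.24, 4.66 and 4.65 CPM in ELS mice. The groups overlapped, with a log2 fold change of -0.02 (95% interval -0.35 to 0.31). Cybb, on chromosome X from 9435252 to 9487771 (minus strand), was near the limit of detection, with 8, 5 and 6 reads in control mice and 23, 20 and 17 reads in ELS mice. This gave 0.260, 0.177 and 0.209 CPM in control mice and 0.689, 0.572 and 0.527 CPM in ELS mice. The groups did not overlap, but the gene was below the minimum and entered no main test. In the fit without a minimum, in which 17357 genes were tested, its log2 fold change was 1.45 (standard error 0.492, 95% interval 0.41 to 2.48, adjusted p = 0.953 in edgeR). In that fit 4.13% of all genes lay higher in every ELS mouse without overlap. Of 10 blood leukocyte markers, 2 (Ccr2 and Ngp, at similarly low counts) also lay higher in every ELS mouse and 8 did not, and their part in the Cybb values was not tested.

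Of the toll-like receptor partners and costimulatory proteins, 3 of 5 genes had a log2 fold change above 0. Ly86 (MD-1), a secreted partner of the receptor RP105, had 10.03, 9.48 and 11.1 CPM in control mice and 11.6, 10.9 and 12.6 CPM in ELS mice. Control mouse 3 lay just above ELS mouse 2, and the log2 fold change was 0.20 (standard error 0.108, 95% interval -0.03 to 0.43). Cd53, a tetraspanin of leukocytes, had 9.06, 11.7 and 11.4 CPM in control mice and 11.8, 10.3 and 11.6 CPM in ELS mice. Control mouse 1 was the lowest, and the log2 fold change was 0.07 (95% interval -0.19 to 0.33), or -0.04 without that mouse. Cd14, the coreceptor for lipopolysaccharide, was at 0.00 with an interval of -0.51 to 0.51, Cd86, a ligand of CD28, at 0.11 with one of -0.32 to 0.54, and Vsir (VISTA), an inhibitory checkpoint that microglia express at rest, at -0.02.

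Levels of different genes were compared per kilobase of exon (GENCODE M21). Ctsd stood first with 87.0 ± 4.69 CPM per kilobase in control mice and 87.6 ± 3.71 in ELS mice (SD, n = 3 each), followed by Ctss at 52.6 ± 2.89 and 55.0 ± 3.15. C1qa had 43.7 ± 5.04 and 47.1 ± 3.63 CPM per kilobase, and C1qb 39.1 ± 3.97 and 39.2 ± 2.12. Tyrobp, P2ry12 and C1qc followed at 25.1 ± 3.65, 25.6 ± 1.80 and 21.6 ± 1.91 CPM per kilobase in control mice, of which Tyrobp and P2ry12 differed by less than their spread. The lowest levels were those of Ptprc and Cybb, with means over all mice of 0.183 and 0.0698 CPM per kilobase. The length used is that of the exons of all annotated transcripts together, which for Ptprc is 18313 bases.

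Genes around microglia that are not part of the 43 were read from 5 further lists chosen by role. Of their 67 tested genes, 0 were called by edgeR's quasi-likelihood test and 1 (Ptgs2) had an unadjusted p under 0.05, with the same counts from DESeq2 and the likelihood ratio test. Over all 13185 genes, 2 (0.0152%) were called in the quasi-likelihood test, 18 with DESeq2 and 28 with the likelihood ratio test. Such a p was found for 4.23% of all genes (3.72% with DESeq2, 4.95% with the likelihood ratio test). Among 30 other microglia genes, 19 had a log2 fold change above 0 and 11 below (median 0.03), and the lowest was that of Ltc4s at -0.33. Syk, the kinase downstream of Tyrobp, and Il10ra, an interleukin-10 receptor chain, each had a log2 fold change of 0.29 with overlapping groups. Cst3 (cystatin C), the most abundant by CPM, was at -0.01. Among 15 tested signals that reach microglia from other cells, 8 lay above 0 (median 0.006). The ligands of CSF1R, Csf1 and Il34, were at -0.04 and 0.02, and fractalkine (Cx3cl1) was at 0.03, beside the 0.13 of its receptor. Cd200, a neuronal protein that restrains microglia, was at 0.10, Tgfb2 at 0.11 and Apoe at 0.04, all with overlapping groups. The other TGF-beta ligands, Tgfb1 and Tgfb3, were both at -0.11. Tgfb1 was lower in every ELS mouse, with 6.69, 6.12 and 6.21 CPM against 6.08, 5.74 and 5.76 CPM (95% interval -0.39 to 0.16). Of the 15 signals it was the 1 gene without overlap, while 4.47% of all genes tested lay lower and 3.81% higher in every ELS mouse.

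Complement genes beyond C1q were tested for 7 of 11, with 3 above 0 and a median of -0.04. C1ra, a protease of the C1 complex, was at -0.47 with overlapping groups and a mean of 2.38 CPM, or at -0.12 without control mouse 3, which had the highest level. Masp1, a protease of the lectin pathway, was at -0.18. It was the 1 gene of the 7 lower in every ELS mouse, against 4.47% of all genes tested. C3, the hub of the cascade, stayed under the minimum at a mean of 0.172 CPM. Genes of disease-associated microglia (11 of 16 tested) had a median of 0.04. Lpl, lipoprotein lipase, was at 0.19, Spp1 (osteopontin) at -0.23 and lower in every ELS mouse, and Fth1, the ferritin heavy chain, at -0.01. Spp1 was the 1 gene of the 11 without overlap, beside the same 4.47% of all genes. Itgax, Cst7 and Clec7a, which define that state, stood at means of 0.143, 0.0530 and 0.156 CPM and were not tested. Inflammatory cytokines and enzymes were for the most part under the minimum, with 4 of 16 tested and a median of -0.14. Il1b and Tnf had means of 0.270 and 0.0222 CPM, and Cxcl10 reached 1.95 CPM in ELS mouse 3 alone. Ptgs2 (cyclooxygenase-2), which cortical neurons also express, was at -0.33 (95% interval -0.60 to -0.06, adjusted p = 1 in edgeR) with overlapping groups, and Nfkbia, an inhibitor of NF-kappaB, at -0.26. The other tested genes of this list, Casp1 and Il18, were at 0.27 and -0.03 with overlapping groups.

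Markers of other cells that share genes with microglia were set beside these values. Blood leukocyte markers were low, with 9 of 10 under 1 CPM in every mouse, and their sum ran from 0.682 to 1.15 CPM in control mice and from 0.972 to 3.15 CPM in ELS mice, a ratio of 1.83 with overlapping groups. The ratio was 1.15 without ELS mouse 1, which had the highest sum. Of the 10 markers, 2 lay higher in every ELS mouse, 0 lower, and 8 overlapped or had no reads. Over all genes in the fit without a minimum, 4.13% lay higher and 3.97% lower in every ELS mouse. Ccr2, a chemokine receptor of monocytes, had 3 reads in each control mouse and 16, 13 and 11 reads in ELS mice, and Ngp, a neutrophil granule protein, 0, 1 and 1 against 13, 4 and 7 reads. Cybb, which blood phagocytes express strongly, had the same layout. The neutrophil genes S100a8 and S100a9 overlapped, with 0, 5 and 12 against 24, 6 and 1 reads and 9, 14 and 12 against 36, 5 and 11 reads. Perivascular macrophage markers (8 of 8 found, 3 tested) summed to 24.3 ± 1.85 and 25.4 ± 0.396 CPM (SD, n = 3 each), with a ratio of 1.04 and overlapping groups. Of these, Mrc1, the mannose receptor, was higher in every ELS mouse with a log2 fold change of 0.25 (95% interval -0.07 to 0.56), while Cd163, Lyve1, Pf4, Ms4a7 and Cbr2 stayed under the minimum. Ms4a7, another marker of these macrophages, went the other way without overlap, with 22, 15 and 16 reads in control mice and 8, 6 and 11 reads in ELS mice. Endothelial markers summed to 203 ± 14.7 and 221 ± 20.2 CPM (SD, n = 3 each), a ratio of 1.09, and 5 of 6 had log2 fold changes above 0, with Cldn5, a tight junction protein, at 0.31 (95% interval 0.08 to 0.53, adjusted p = 0.970 in edgeR) and overlapping groups. Choroid plexus markers were low, with sums of 3.80, 3.36 and 4.05 CPM in control mice and 5.66, 5.06 and 3.72 CPM in ELS mice, a ratio of 1.29 with overlapping groups. Of these 5 markers 2 were tested, the potassium channel gene Kcnj13 at 0.50 (95% interval -0.07 to 1.08), higher in every ELS mouse, and Kl (klotho) at 0.36 (95% interval -0.13 to 0.86) with overlapping groups. Ttr (transthyretin), the most abundant transcript of that tissue, had 20, 4 and 11 reads in control mice and 18, 11 and 5 reads in ELS mice. The marker sums of astrocytes, oligodendrocytes, neurons and striatal neurons had ratios of 0.994, 0.981, 0.989 and 1.09, and that of erythrocytes one of 1, all with overlapping groups. Among the ELS mice, mouse 3 had the highest and mouse 2 the lowest sum of endothelial markers and of microglia genes alike, whereas control mouse 3 had the lowest endothelial sum and the highest microglia sum of the controls. The part of these cells in the fold changes of the microglia genes was not tested.

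**Figure D4:**
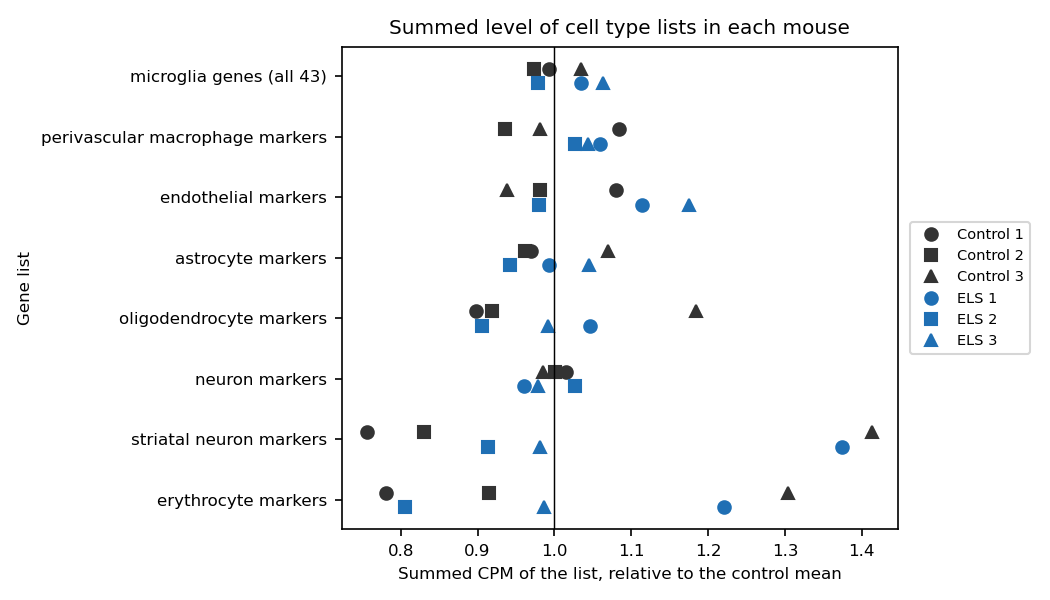
Summed CPM of the 43 microglia genes and of marker lists of other cells in each mouse, divided by the mean of the control mice (symbols, mice 1 to 3; black, control; blue, ELS). The groups overlap in all 8 lists, and the microglia sums spread less between mice than those of striatal neuron and erythrocyte markers. Blood leukocyte and choroid plexus markers, which were low and had ratios of 1.83 and 1.29 between the groups, are not shown.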

How the data were processed

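PFC RNA of 3 control mice and 3 ELS mice gave 6 libraries. The values deposited by the authors were raw counts for each gene symbol, without normalization or pooling, made by trimming (Trimmomatic), alignment to mm10 (STAR) and counting of unique alignments (HTSeq). The submitters' processing notes name STAR 2.7.1a and HTSeq 0.9.1, and the paper names another STAR version. For library making, TruSeq (stranded mRNA) is named in the labels and KAPA in the paper. The annotation release and the strand setting of the counting are not given in the sources used here. ELS columns carry the term social isolation in short, and this term with the number linked each column to its ELS sample.

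The test was the quasi-likelihood test of edgeR 4.0.16 (R 4.3.3), with TMM scaling and condition as the single term. A gene was tested if every mouse of either group had at least 1 CPM. Adjustment of p-values (Benjamini-Hochberg) covered all 13185 genes. Standard errors and 95% intervals were derived from the F statistic. CPM values are TMM-scaled. The pipeline was tested on simulated data. Positions and exon lengths came from GENCODE M21 (GRCm38), in which all 43 symbols matched, and promoters from RefSeq. The authors' symbols were used as deposited. A further gene, left out of the lists, is not reported here. No pair of mice of a group agreed within sampling noise (chi-square per degree of freedom of at least 6.70). Total counts ran from 28405795 to 35241743, and both counting error and the spread between 3 mice enter the intervals.

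The members and lists were chosen with earlier results of these data known. All members are named, with values in each mouse for Aif1, for the 8 genes of smallest p and for the gene of highest level per length in each role, and from each other list the 2 genes of smallest p and the most abundant gene. Itgam, Lyz2 and Cybb, Trem2 and Spi1, and further list genes (the TAM genes, Il34, Csf1, Cx3cl1, C3, Itgax, Cst7, Clec7a, Il1b, Tnf, Cxcl10, Casp1, Il18, Ltc4s, Tgfb1, Tgfb3, Aldh1l1, Ms4a7, Ccr2, Ngp, S100a8, S100a9, the choroid plexus genes, Mrc1 and Cldn5) were added after their values were seen. The alternatives were DESeq2 1.42.0, the likelihood ratio test, DESeq2 size factors, other gene filters, a block for the replicate number and leaving out each mouse. Thinned counts and the leukocyte sum without ELS mouse 1 were added after seeing the data. The count of microglia genes with a log2 fold change above 0 was not planned under any setting, the main one included. The count of genes without overlap was not planned for the likelihood ratio test, the other gene filters, the block or the thinned counts.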

Additional observations from a re-analysis of the deposited data

How the results depend on the processing

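The number of microglia genes called was 0 under each of the 13 alternatives. Over all genes, 2 were called, against 18 with DESeq2, 28 with the likelihood ratio test, 4 without a gene filter and 1 to 29 with each mouse left out. The count of 29 came without control mouse 3. Microglia genes at an unadjusted p under 0.05 ranged from 1 to 6 with a mouse left out (1 without ELS mouse 1 or 3, 6 without control mouse 3, where 1544 of 13212 genes, or 11.7%, were under this p, against 4.23% with all mice). Genes without overlap ranged from 7 to 18 (18 without control mouse 3, 16 of them higher in ELS mice and 2 lower, against 13.9% and 15.7% of all genes; 14 without ELS mouse 2, 13 higher and 1 lower, against 7.58% and 8.66%), and the median log2 fold change from 0.03 to 0.10, with 25 to 35 genes above 0. With a replicate block, 7 genes were called and no microglia gene, and Cd14 moved to 0.00489. Numbers are shared by different animals, and the deviations of same-numbered mice correlated at -0.145, 0.238 and -0.0339. So few correlations cannot settle whether the numbers pair the mice. With counts thinned to the smallest library, C1qb moved to -0.00234, Cd14 to 0.0224 and Aif1 from 0.112 to 0.056, while Mertk was at -0.256 and P2ry13 at 0.203. Genes without overlap were then 5 higher in ELS mice and 2 lower, against 3.96% and 4.54% of all genes.

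In 34 of the 42 genes tested, leaving out 1 mouse turned the log2 fold change or moved it by over 1.5 times, and the other 8 were Apbb1ip, Cx3cr1, Fcrls, Itgam, Ly86, Mertk, Mpeg1 and P2ry13. Of the 42 genes, 23 kept their direction throughout, among them Mertk (-0.33 to -0.20 with a mouse left out), P2ry13 (0.19 to 0.26) and Cx3cr1 (0.09 to 0.17). The other 19 changed sign with a mouse left out. Their log2 fold changes then ran from -0.0219 to 0.241 for Aif1, -0.0437 to 0.106 for Tmem119, -0.0836 to 0.00573 for P2ry12, -0.0265 to 0.0728 for Csf1r, -0.0629 to 0.0405 for Inpp5d, -0.0787 to 0.0897 for Fcer1g, -0.0618 to 0.00581 for Fcgr3, -0.28 to 0.0763 for Ptprc, -0.0421 to 0.0881 for C1qb, -0.0452 to 0.0854 for C1qc, -0.0803 to 0.096 for Itgb2, -0.055 to 0.0432 for Itgb5, -0.0414 to 0.0769 for Cd68, -0.019 to 0.0522 for Ctsd, -0.115 to 0.0391 for Cyba, -0.15 to 0.217 for Cd14, -0.0409 to 0.139 for Cd53, -0.0471 to 0.285 for Cd86 and -0.0427 to 0.00435 for Vsir. With 3 mice per group, exact permutation cannot give a p below 0.1.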
